A study of Mus musculus with 45 samples.

Results

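Label loss early in the chase was examined gene by gene in cortical cells of E16.5 mouse embryos. Genes were kept when more than 2000 thymidine positions were covered by reads (covered Ts) at 0, 2 and 4 h in each of pools A, B and C. This left 11034 of the 53491 genes in each table (20.6%), of which 10015 were annotated as protein coding. The same minimum kept 9794 genes when it was also applied at E14.5 and E11.5. The lowest coverage of a kept gene in any of the 9 libraries was 2001 covered Ts, and the highest just outside was 1998.

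Wild-type cortices of 2 E16.5 embryos were combined per pool, dissociated and plated in medium with bFGF, and each pool was divided over 5 wells. The wells received 100 uM 4-thiouridine (4sU) for 20 h, followed by a 50-fold molar excess of uridine (5 mM), and 1 well per pool was lysed at 0, 2, 4, 8 or 12 h. Pools are therefore different animals, while the wells of a pool share them. The comparison stages are E14.5 (2 embryos per pool) and E11.5 (7 embryos per pool), cultured and labelled in the same way, giving 45 libraries in all.

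In SLAM-seq, 4sU built into new RNA is alkylated and read as a T-to-C conversion, so that converted Ts over covered Ts (the conversion rate) reports how much of a gene's RNA was made during labelling. During a uridine chase the rate falls as labelled RNA decays and as unlabelled RNA takes its place. Unstable mRNAs are classically those of growth factor responses and of transcription factors whose levels must change fast. AU-rich elements and Pumilio sites in the 3′ UTR recruit the CCR4-NOT deadenylase, while mRNAs of ribosomes, mitochondria and the cytoskeleton are known as long-lived.

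Short stretches of 3′ UTR are shown for genes that lost label early, because their letters include the AU-rich pentamer ATTTA or the Pumilio-type octamer TGTANATA. The matched letters are in capitals, on the transcript strand, from GENCODE M21 transcripts (GRCm38).
Fos, ATTTA: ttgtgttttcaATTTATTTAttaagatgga
Flrt3, ATTTA: ttgccatataATTTAtATTTAagaactttt
Kbtbd8, ATTTA: gaggcaatatcATTTATTTAgctgtgatct
Btg2, ATTTA: aATTTAtttgtagatgtgtgcaatATTTAc
Mycn, TGTANATA: aacacttgTGTAAATAccattgat
Dusp6, TGTANATA: ctgattatTGTAAATAtttgatct
Dll1, TGTANATA: tattttttTGTATATAaatgtatt
Hes1, TGTANATA: actgcattTGTATATAttttatat
The Fos stretch lies at chr12:85477100-85477129 (+), the Flrt3 stretch at chr2:140659600-140659629 (-), the Kbtbd8 stretch at chr6:95127313-95127342 (+) and the Btg2 stretch at chr1:134076017-134076046 (-). The octamers lie at chr12:12936596-12936619 (-) in Mycn, chr10:99266792-99266815 (+) in Dusp6, chr17:15367455-15367478 (-) in Dll1 and chr16:30067605-30067628 (+) in Hes1. All 8 lie in annotated 3′ UTR, and a match is a description of the letters, not evidence of binding.

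The E16.5 libraries at 0, 2 and 4 h held between 341545236 and 618348591 covered Ts. Summed over genes, the conversion rate at 0 h was 1.80% in pool A, 1.91% in pool B and 1.88% in pool C. At 2 h the rates were 1.42%, 1.52% and 1.55%, and at 4 h 0.852%, 0.938% and 0.926%. The pools stayed close together at each time, and no pool overlapped between times. Cortical identity genes summed to between 1976 and 2089 CPM (reads scaled to library size) at 0 h, with Neurod6 the highest at 742 CPM. Endothelial markers summed to at most 4.17 CPM and microglial markers to at most 12.0 CPM at 0 h, while erythroid genes ranged from 86.9 to 207 CPM between pools. Oligodendrocyte precursor markers summed to between 290 and 324 CPM at 0 h, and interneuron markers to between 179 and 188 CPM. The part of these cells in the shares below was not tested, and in such bulk samples fewer cells of a type and less RNA per cell cannot be told apart.

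The share of label remaining, 100 times the rate at a time over the 0 h rate of the same pool and gene, ranged widely between genes. The median gene kept 77.3%, 78.4% and 82.0% of its label at 2 h in pools A, B and C, and 38.1%, 39.6% and 39.3% at 4 h. At 8 h the medians were 15.3%, 14.7% and 14.8%, and at 12 h their mean was 11.4%. The medians of pools therefore differed by less than genes did: the middle 80% of genes spanned 50.2 to 98.6% at 2 h and 22.1 to 75.9% at 4 h. Within single genes, the SD between pools had a median of 5.75 points at 2 h and 3.57 points at 4 h. In all 3 pools, 691 genes kept under 50% at 2 h, 238 kept under 20% at 4 h, and 373 kept over 80% at 4 h. A gene and pool had a median of 342 converted Ts at 0 h and 154 at 4 h, and 8444 genes had over 100 at 0 h in each pool.

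**Figure D1:**
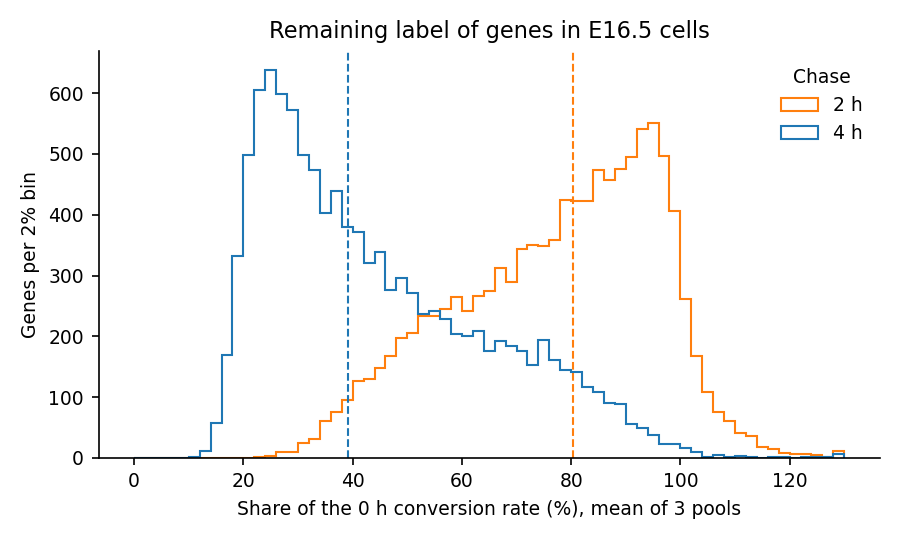
Number of genes in 2% bins by share of the 0 h conversion rate (mean of 3 pools, E16.5) at 2 h (orange) and 4 h (blue), with dashed lines at the medians; higher values are drawn in the last bin. The median gene moved from 80.3% at 2 h to 39.1% at 4 h.

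Each gene was then set against the median gene of its library. Using limma with the pool as a block, a gene was called faster or slower when its log2 rate had changed by over 0.25 below or above the median gene's change, with a Benjamini-Hochberg adjusted p under 0.05. At 2 h, 2511 genes were faster (22.8%) and 2318 slower (21%). At 4 h, 3803 were faster (34.5%) and 4161 slower (37.7%). When libraries were centred on their summed rate in place of the median gene, the split at 4 h became 5636 faster and 2622 slower, so that faster and slower are relative to the chosen centre.

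Immediate early genes, which encode transcription factors and feedback regulators induced within minutes of a stimulus, had the lowest median at 4 h of the 44 lists with a tested member. Of 26 tested, 25 were faster at 4 h and none was slower, against 34.5% and 37.7% of all genes. Their median share was 32.7% at 2 h and 17.6% at 4 h, and 19 of them also had lower covered Ts at 4 h than at 0 h by edgeR, as did 19.6% of all genes. Egr3, a zinc finger transcription factor, kept 12.9%, 8.18% and 13.8% at 4 h in pools A, B and C, from 143, 232 and 144 converted Ts at 0 h to 13, 6 and 15. These are small numbers of converted Ts, and its fitted change relative to the median gene was -1.69 log2 (SE 0.15, limma adjusted p = 8.87e-05). Egr3 had means of 10.6% at 8 h and 11.9% at 12 h, so its share at 4 h was already near its residual. Covered Ts of Egr3 also changed, by -1.12 log2 at 4 h (edgeR adjusted p = 1.53e-06).

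Egr1, of the same family, rested on more evidence, with 2303, 4113 and 3157 converted Ts at 0 h. It kept 27.3%, 27.5% and 26.9% at 2 h and 14.3%, 14.4% and 14% at 4 h. The pools did not overlap with the median gene's share at either time. Fos, the AP-1 subunit, kept 29.5%, 25.1% and 29.3% at 2 h and 18.1%, 14.9% and 14.1% at 4 h. Its covered Ts fell by 0.42 on the log2 scale by 4 h (edgeR adjusted p = 3.99e-05), while the change for Egr1 was -0.15 (edgeR adjusted p = 0.0884). The highest member with over 100 converted Ts was Homer1, a postsynaptic scaffold, at 26.3%, 27.4% and 29.2% at 4 h. Only Crem, at a mean of 33.3%, was not called.

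The genes with the lowest shares at 4 h included regulators outside that list. Among called protein-coding genes with over 100 converted Ts at 0 h and no shared exons, the lowest 12 included Egr3, Flrt3, Kbtbd8, Dyrk3, Spty2d1, Mycn, Egr1, Cmtr2, Ccnj, Dusp6 and Klf6, with means of 11.6 to 14.8%. Flrt3, an adhesion protein of migrating neurons, kept 29.7%, 25.8% and 25.9% at 2 h and 9.70%, 11.3% and 14.1% at 4 h. Its converted Ts went from 875, 1503 and 1279 at 0 h to 79, 91 and 157 at 4 h. Covered Ts of Flrt3 also changed, by -0.67 log2 at 4 h (edgeR adjusted p = 3.63e-09). Mycn, a proto-oncogene transcription factor, kept 14.2%, 12.2% and 16.2% at 4 h, and its covered Ts at 4 h differed from 0 h by -0.08 log2 (edgeR adjusted p = 0.0881).

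**Figure D2:**
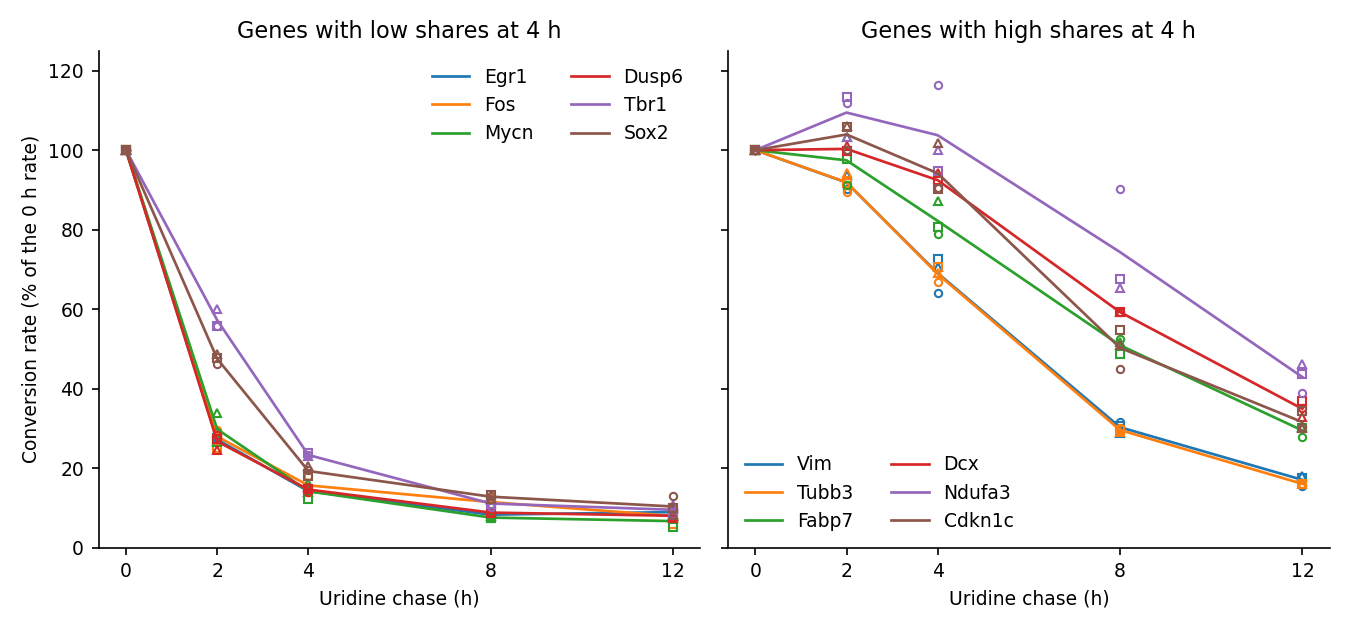
Conversion rate as a percentage of the 0 h rate over the uridine chase for 6 genes among the lower shares (left) and 6 among the higher (right) in E16.5 cells; circles, squares and triangles are pools A, B and C, and lines join the means of the 3 pools. Egr1 had lost most of its label by 2 h, while Dcx kept over 90% in every pool at 4 h.

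FGF feedback genes, which dampen the receptor signal that the bFGF in the medium would engage, had a median of 50.2% at 2 h and 20.7% at 4 h. Of 13 tested, 8 were faster and 1 slower at 4 h, against 34.5% and 37.7% of all genes. Dusp6, the phosphatase of ERK, kept 28.3%, 27.4% and 24.5% at 2 h and 13.9%, 14.8% and 15.2% at 4 h, from 2106, 3144 and 3278 converted Ts at 0 h. Spry2, Spry4 and Spry1, inhibitors of receptor tyrosine kinase signalling, followed at means of 15.4%, 16.9% and 17.3%. The slower member was Etv4, an ETS transcription factor, at 65.4%, 64.3% and 84.6%. The members therefore spread over most of the range.

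Proneural and intermediate progenitor genes drive the step from radial glia to neurons. Of 13 tested, 10 were faster at 4 h and 1, Tead2, was slower, against 34.5% and 37.7% of all genes. The call of Tead2 was lost without any single pool, and its value turned to the other side of the centre when libraries were centred on the summed rate. Btg2, an antiproliferative gene of neurogenic divisions that the immediate early list also holds, kept 19.2%, 17.3% and 15.4% at 4 h. Neurog2, a proneural bHLH factor, kept 29.5%, 19% and 19.3%, from 92, 121 and 111 converted Ts. Eomes, the marker of intermediate progenitors, kept 32.6%, 24.7% and 26.0%, from 88, 161 and 132. For both genes every pool was under the median gene's share in the same pool. After subtraction of each gene's own 12 h rate, 6 of the 13 were called faster.

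In the Notch list, which holds signal, receptor and response genes of progenitor maintenance, 17 of 26 tested were faster and 3 slower at 4 h. Among all genes, 34.5% were faster and 37.7% slower. The list had a median of 27.2%, and without pool C, 11 members were faster. Among ligands, Dll1 kept 13.1%, 20.3% and 24.8%. Among receptors, Notch1 had a mean of 26.6% and Notch2 of 25.1% and both were faster, while Notch3 at 60.6% was slower. Among effectors, Hes1 was faster at a mean of 25.7% (limma adjusted p = 0.0322), from only 28, 58 and 64 converted Ts at 0 h. At 12 h Hes1 still had a mean of 21.5%, so its share at 4 h lay near its residual. Hes5 had 28.1%, from 22, 28 and 37 converted Ts, and did not pass. Dtx3, a Deltex ubiquitin ligase, was the highest at 84.9%, 97.1% and 101%.

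Cortical identity transcription factors, which set laminar and areal fate, had 29 of 37 tested faster and 3 slower at 4 h. Among all genes, 34.5% were faster and 37.7% slower. The list had a median of 56.9% at 2 h and 27.3% at 4 h. Tbr1, of deep layers, kept 55.8%, 55.9% and 60.0% at 2 h and 23.2%, 23.8% and 23.0% at 4 h, from 2661, 4993 and 3818 converted Ts, and Bcl11b, of subcerebral neurons, kept 24.3%, 21.9% and 21.4%. Both lay under the median gene in every pool. The slower members were Nfix, Cux2 and Cux1, at means of 52.5%, 54.8% and 67.9%.

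The C2H2 zinc finger list, chosen by symbol, was the largest, with 237 of 306 tested faster and 15 slower at 4 h. Its median was 53.5% at 2 h and 24.0% at 4 h. For this and the next lists, the shares of all genes were 34.5% faster and 37.7% slower. Of 38 histone methyltransferases and demethylases, 27 were faster and 3 slower, with a median of 29.7%. Of 18 deadenylase genes of the CCR4-NOT and PAN2-PAN3 complexes, which shorten poly(A) tails, 14 were faster and 3 slower, with a median of 27.4%. The lowest of these was Tob1, an adaptor of the complex that was called faster, and the highest Cnot10, a subunit, at a mean of 68.1%. Circadian clock genes had 9 of 11 faster and none slower, and the 11 NF-kB and cytokine feedback genes had 10 faster and 1 slower.

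Several lists of housekeeping assemblies stood far above the median gene. Of 75 nuclear-encoded respiratory chain subunits, which carry electrons and make ATP in mitochondria, 73 were slower at 4 h and none was faster. Among all genes, 37.7% were slower and 34.5% faster. The subunits had a median of 97.4% at 2 h and 81.0% at 4 h. The members not called, Sdhd and Atp5g1, had means of 45.3% and 50.0%. Ndufa3, a subunit of complex I, kept 112%, 113% and 103% at 2 h and 116%, 94.8% and 100% at 4 h. From 120, 216 and 189 converted Ts at 0 h it had 212, 199 and 257 at 4 h, while its covered Ts went from 10222, 14190 and 13427 to 15513, 13793 and 18243. Shares over 100% in all pools occurred for 143 genes at 2 h and 11 at 4 h.

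Of 53 tested cytosolic ribosomal protein genes, 50 were slower, against 37.7% of all genes, and 1, Rpl7l1, was faster, against 34.5%. The faster call was lost without pool A or without pool C. The list's median was 94.8% at 2 h and 76.9% at 4 h. Only 53 of the 86 listed genes reached the coverage minimum, and ribosomal protein genes have many near-identical copies, so that reads may be split between them. Eef1a1, a translation elongation factor that shares exons with another gene on its strand, kept 86.3%, 87.6% and 85.2%. Gapdh, an enzyme of glycolysis, had a mean of 4.76 CPM at 0 h and was not among the tested genes. Whether Gapdh reads were also split between copies was not tested, so 4.76 CPM may understate its expression. Of 35 proteasome subunits, 28 were slower and none faster, with a median of 67.8%. Of 20 aminoacyl-tRNA synthetases, 18 were slower and none faster, with a median of 60.2%, and of 18 glycolysis genes, 15 were slower and 3 faster. Other housekeeping lists lay nearer the median gene. Their counts are again to be set against 37.7% of all genes slower and 34.5% faster. Mitochondrial ribosomal proteins had 38 of 75 slower and 15 faster, with a median of 46.2% (19 slower and 28 faster when centred on the summed rate). Chaperones, which fold proteins, had 34 of 66 slower and 18 faster, with a median of 47.0%. Translation initiation and elongation factors had 36 of 60 slower and 11 faster, with a median of 50.0%.

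Neuronal cytoskeleton and growth cone genes had 27 of 30 tested slower and none faster, against 37.7% and 34.5% of all genes. Their median was 95.1% at 2 h and 71.0% at 4 h. Dcx, the microtubule protein of migrating neurons, kept 90.4%, 92.6% and 94.3% at 4 h, from 15066, 27529 and 20724 converted Ts. Tubb3, neuronal beta-tubulin, kept 67.0%, 70.5% and 69.1%, and Actb, beta-actin, kept 55.9%, 57.6% and 56.6%. Each stood above the median gene in every pool, and Dcx above Tubb3 and Actb. Clustered protocadherins, surface proteins with shared 3′ exons that cannot be told apart where reads fall there, had 27 of 39 slower and 1 faster (0 faster without pool A or B, and 2 without pool C). Among the 16 members with over 100 converted Ts at 0 h in each pool, 10 were slower.

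The radial glia list held members at both ends of the range. Of 26 tested, 21 were slower and 3 faster, against 37.7% and 34.5% of all genes. The list had a median of 70.1%, and 1 member was faster without pool B or without pool C. The faster members Sox2, Hes1 and Pax6 encode transcription factors, and Sox2 kept 19.5%, 18.0% and 20.5%. Vim, an intermediate filament, kept 64.2%, 72.5% and 70.5%, and Fabp7, a lipid-binding protein, kept 78.8%, 80.7% and 87.1%. Fabp7 and Sox2 differed in every pool without overlap. Cell cycle genes were closer to the median gene: mitosis genes had 3 faster and 18 slower of 44, with a median of 44.5% (1 faster and 9 slower without pool B, 13 faster and 2 slower when centred on the summed rate, and 11 faster and 6 slower when converted Ts were divided by the library's covered Ts), and DNA replication genes 6 faster and 25 slower of 43, with a median of 50.6% (13 faster and 8 slower when centred on the summed rate). By edgeR, normalised covered Ts fell from 0 to 4 h for 29 of the 44 mitosis genes, against 19.6% of all genes, and the part of this fall in their counts was not tested further.

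The highest called shares at 4 h among protein-coding genes with over 100 converted Ts and no shared exons were those of Mvb12a, Tpt1, Eno1b, Ndufa3, Actl6b, Aldh2, Ndufa1, Begain, Sparc, Drap1, Lamtor2 and Park7, with means of 99.7 to 110%. Tpt1 has many processed copies and Eno1b is a near-identical copy of Eno1, so their values are uncertain. The mean of Mvb12a rested on pool B, with 80.8%, 175% and 75.2%, and its 0 h rate was 1.57% there against 2.96% and 2.78% in pools A and C. Sparc, a matricellular protein of glia and vessels, had 160, 487 and 321 converted Ts at 0 h, and kept 109%, 99.2% and 94.0%. At 12 h these genes kept means of 33.4 to 67.7%.

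**Figure D3:**
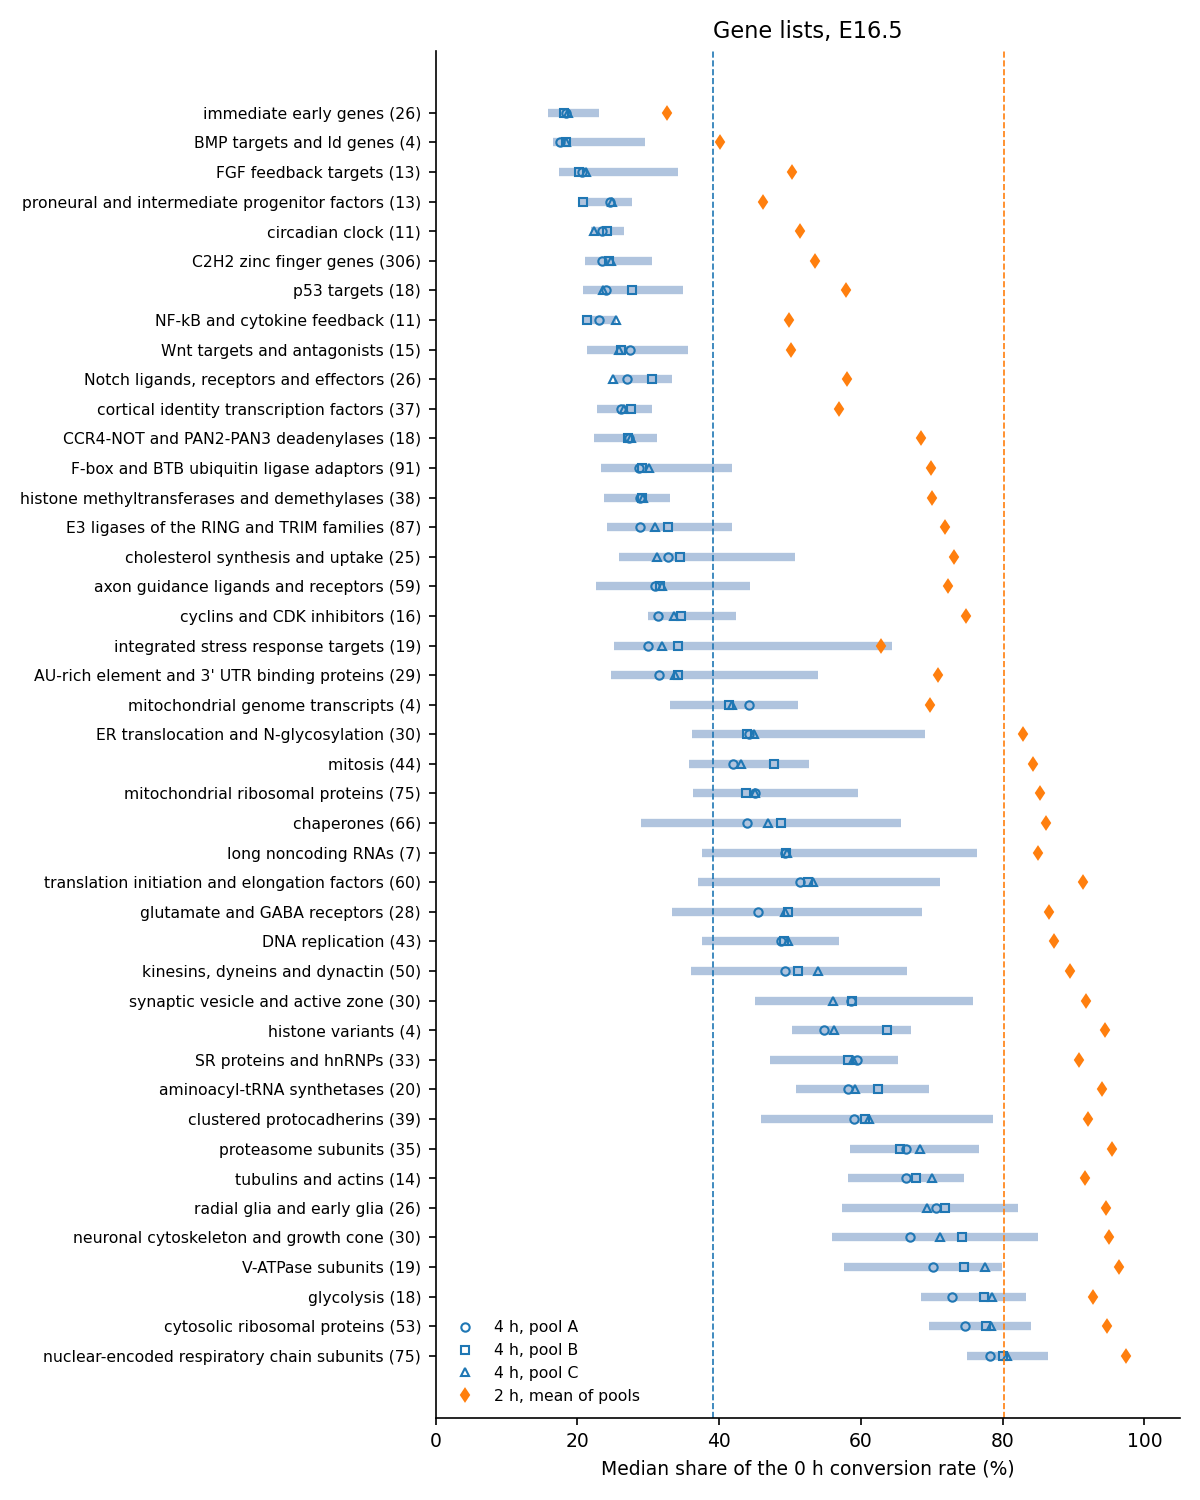
Median share of the 0 h conversion rate for gene lists with 4 or more tested members (number in brackets) in E16.5 cells at 4 h in pools A, B and C (open blue symbols) and at 2 h as the mean of pools (orange), with bars for the quartiles of members at 4 h and dashed lines for all tested genes. Immediate early genes sit at 17.6% at 4 h and respiratory chain subunits at 81.0%.

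The timing of the loss also differed between genes. The median gene changed by -0.32 log2 between 0 and 2 h and by -0.98 between 2 and 4 h. In all 3 pools, 8278 genes (75%) lost more in the second interval and 365 (3.31%) lost more in the first. Of the 1103 genes with the lowest shares at 4 h, 229 lost more in the first interval in every pool, against 16 of the 1103 with the highest; both sets were chosen by the share at 4 h, so these counts are descriptions. Of 26 immediate early genes, 18 lost more in the first interval. Egr1 changed by -1.88 log2 and then by -0.94, and Dusp6 by -1.90 and then by -0.87.

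By limma, with the difference of intervals relative to the median gene, 1359 genes (12.3%) lost less later and 108 (0.979%) lost more later. Leaving out any pool gave 0 calls in each direction, so single genes are given by value. The highest was Clp1, an RNA kinase, with 30.5%, 26.5% and 18.5% left at 2 h and 23.3%, 13.6% and 13.9% at 4 h. The lowest was Gm4750, at 91.9%, 79.2% and 99.5% and then 19.7%, 19% and 15.6%, while its covered Ts rose from 3712, 5133 and 3887 at 0 h to 13502, 12667 and 15697 at 4 h. The 1103 genes with the lowest shares at 4 h kept a median of 10.4% at 8 h and 9.20% at 12 h, and the part of this residual in the counts was not tested beyond its subtraction. After subtraction of each gene's own 12 h rate, 580 genes lost less later and 30 more.

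Features of the transcript that were not used in choosing genes were read from the coding isoform with the longest coding sequence, for 10004 protein-coding genes. The genes were ordered by share at 4 h and divided into sets of 10%. In the lowest set the median 3′ UTR was 1647 nt, in the highest 419 nt. The median number of exons was 5 in the lowest set and between 8 and 11 in the others, and 7.09% of genes in the lowest set had 1 exon, against 2.28% of all. By number of exons, genes with 1 exon kept a median of 60.1% and genes with 2 exons 56.5% at 2 h, while genes with 21 or more kept 83.7%.

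ATTTA occurred 2.15 times per kb of 3′ UTR in the lowest set and 1.42 in the highest, and 70.4% of all these genes had at least 1 match. The longer TTATTTATT, which contains ATTTA, was present in 12.4% and 3.70%. TGTANATA was present in 40.0% of the lowest set and 10.9% of the highest, against 28.4% of all. Only the transcript strand was searched. Long UTRs hold more matches, so genes with a 3′ UTR of 1001 to 2000 nt were also divided into sets of 20%. TGTANATA was present in 38.5% of the lowest of these sets, 21.9% of the highest and 29.8% of all 2507. ATTTA occurred 2.14 times per kb in the lowest and 1.58 in the highest. Base composition differed as well, with a median 3′ UTR GC content of 41.9% in the lowest and 47.2% in the highest. In the sets of 10% it was 41.6% and 48.0%. The part of base composition in these matches was not tested.

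**Figure D4:**
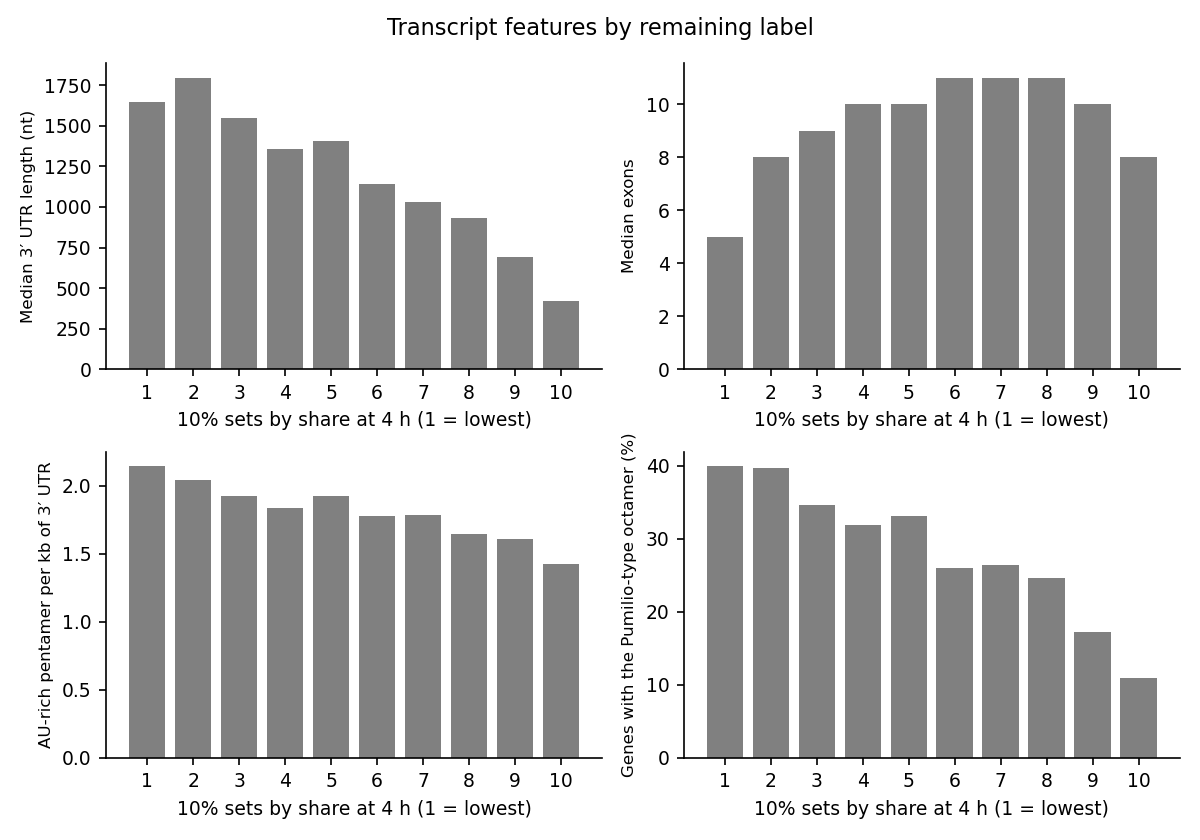
Median 3′ UTR length, median exon number, AU-rich pentamers per kb of 3′ UTR and percentage of genes with the Pumilio-type octamer, by sets of 10% of genes in order of the share at 4 h (1 is the lowest, E16.5). The octamer falls from 40.0% of genes in the lowest set to 10.9% in the highest.

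Total coverage was compared in the same libraries. By edgeR on covered Ts with the pool as a block, 1871 genes (17%) were higher and 2168 (19.6%) lower at 4 h than at 0 h; without the pool as a block the counts were 1071 and 1166. Tbr1 fell by 0.16 on the log2 scale (edgeR adjusted p = 0.00182), and the change of Dcx was 0.06 (edgeR adjusted p = 0.236). Expressed as labelled RNA over the library's covered Ts, Egr1 had 12.6% ± 0.97 (SD, n = 3) of its 0 h amount at 4 h, Tbr1 20.5% ± 1.18 and Dcx 94.7% ± 5.14.

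E16.5 cells had the most label at the start of the chase. The stage was chosen by that value, so its difference at 0 h is a description. The summed rate at 0 h was 1.86% ± 0.057 (SD, n = 3) at E16.5, 1.10% ± 0.076 at E14.5 and 1.18% ± 0.23 at E11.5. The summed share at 4 h was 48.6% ± 1.03 at E16.5, 53.7% ± 1.88 at E14.5 and 52.6% ± 4.44 at E11.5. E16.5 pools lay below all E14.5 pools at 2 and 4 h (exact permutation test, two-sided p = 0.1 each, the smallest that 3 against 3 allows; 0.15 after Benjamini-Hochberg adjustment over 6 comparisons), and overlapped with E11.5 pools (exact permutation p = 0.2 at 2 h and 0.3 at 4 h). The share of the median gene at 4 h was also taken, over each stage's own genes above the minimum. These were 11034 genes at E16.5, 11153 at E14.5 and 10305 at E11.5, so the gene sets differ. By this measure the E16.5 pools (38.1%, 39.6% and 39.3%) lay below all E14.5 pools (45.2%, 46.9% and 49.3%). They also lay below all E11.5 pools (47.5%, 50.4% and 40.9%). The gaps were 8.16 and 7.25 points on average (exact permutation p = 0.1 each). The lower share at E16.5 is therefore a direction that the design could not test below 0.1, and against E11.5 it depended on the measure. At 12 h the summed share was 13.3% ± 0.094 at E16.5, 23.7% ± 1.83 at E14.5 and 23.4% ± 3.08 at E11.5; the part of this residual in the shares at 4 h was not tested, and with a background rate subtracted the shares at 4 h were 46.6%, 49.9% and 48.4%.

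**Figure D5:**
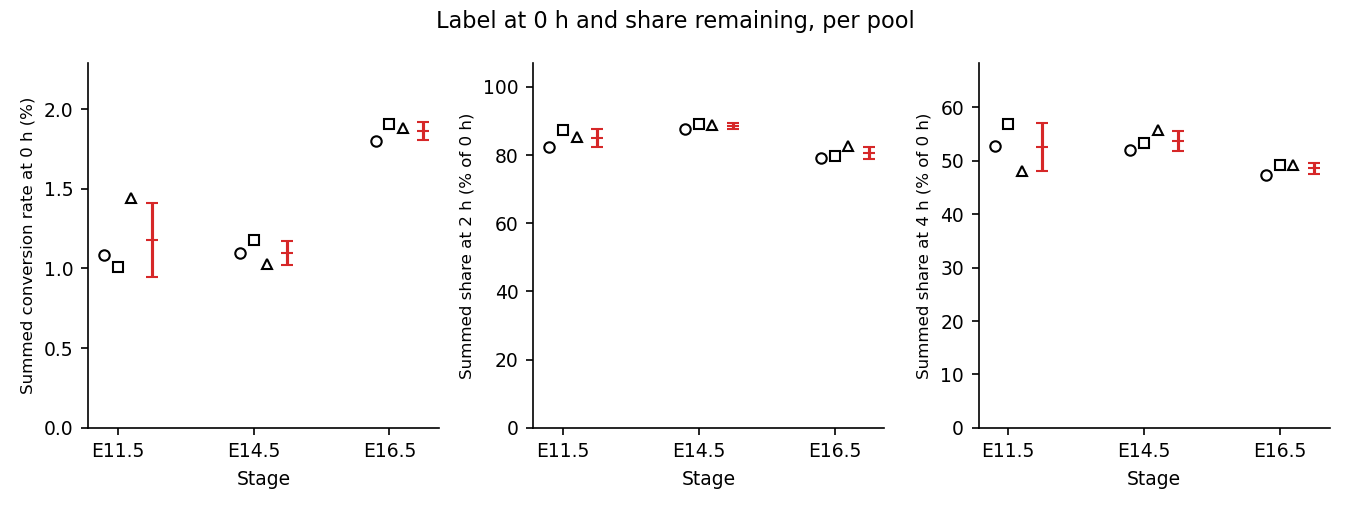
Summed conversion rate at 0 h and summed share remaining at 2 and 4 h for each pool (black symbols; circles, squares and triangles are pools A, B and C) with the mean and SD in red, by stage. The E16.5 pools lie above the others at 0 h and below all E14.5 pools at 2 and 4 h.

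The fast and slow lists were also apart at the other stages. Immediate early genes had medians at 4 h of 29.0% at E14.5 and 24.6% at E11.5, and respiratory chain subunits 83.4% and 79.6%. All tested genes had 47.1% and 46.5%. Only members that also passed the minimum at these stages count here. They were 25 and 21 immediate early genes, without Egr3, and 74 and 73 respiratory chain subunits. Gene by gene, relative to the median gene, E16.5 differed from E14.5 at 4 h for 39 faster (0.398%) and 139 slower (1.42%) genes of 9794, and from E11.5 for 407 faster (4.16%) and 918 slower (9.37%). The counts against E14.5 ranged from 0 to 51 faster and 0 to 151 slower when 1 pool was left out, and were at most 1 and 4 without any single E16.5 or E14.5 pool. Both comparisons share the E16.5 libraries. Mitosis genes had a median of 44.5% at E16.5, 37.7% at E14.5 and 42.4% at E11.5. The medians of all tested genes were 39.1%, 47.1% and 46.5%. Mitosis genes therefore lay above that reference at E16.5 and below it at the earlier stages.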

How the data were processed

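Per the labels, RNA of primary cortical cells was alkylated and sequenced from poly(A)-selected stranded libraries. The authors mapped reads with SlamDunk to mm10 and deposited, per gene, a conversion rate as a fraction, covered Ts as counts, and reads as CPM. Rate times covered Ts gave whole converted Ts, and the CPM values of the deposited tables gave whole reads for 100% of values (tolerance 0.01). Deposited half-lives and fits were not used. Genes were annotated by symbol with GENCODE M21 (96.6% matched).

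Log2((converted Ts + 0.5)/(covered Ts + 1)) was centred on each library's median gene and fitted with limma 3.58.1 (R 4.3.3) on the 9 libraries with time and pool. Letters mark wells of the same animals: deviations of same-letter libraries correlated by 0.0919 to 0.148. Covered Ts were tested with edgeR 4.0.16. In simulated data with 11034 genes at 4 h, 100 genes were changed by 0.5 log2 and 100 by 1 log2, equally up and down. Of these changes 67% and 96% were recovered, with 7 false calls. The simulation used a common dispersion and no pool effect. Far fewer genes were changed in it than were called in the data, so it cannot assess the choice of centre. Genes and lists were chosen with earlier results of these data known. Named genes were anchors, with no minimum of converted Ts, and, with over 100 converted Ts at 0 h in each pool, the 12 lowest and 12 highest called shares at 4 h, the extremes of each list, and the 5 highest and 5 lowest of other contrasts. Other members were taken from their lists. The 45 lists were described by counts and medians. Some items are not reported here.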

Additional observations from a re-analysis of the deposited data

Results flagged for a closer look

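The share at 4 h relative to the median gene differed between stages for the genes below, by limma with an adjusted p under 0.05 and the contrast of E16.5 minus the earlier stage in log2. Against E14.5, the lowest were Serinc2 at -0.79, Flrt3 at -0.79, Zfp35 at -0.75, Nuak1 at -0.68 and Nectin3 at -0.65. Flrt3 kept 11.7% ± 2.24 (SD, n = 3) at E16.5 and 24.2% ± 2.86 at E14.5. The highest were Aurkb at 0.83, Cdk1 at 0.76, Rnps1 at 0.72, Mrpl57 at 0.70 and Nusap1 at 0.69. Aurkb, Cdk1 and Nusap1 act in mitosis, and Cdk1 kept 49.5% ± 3.85 at E16.5 and 35.2% ± 2.65 at E14.5. These calls against E14.5 were not stable. With the replicate block, 0 faster and 2 slower genes were called. Without any single E16.5 or E14.5 pool, there were at most 1 and 4. The E16.5 value of Aurkb at 4 h turned direction after subtraction of its own 12 h rate.

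Against E11.5, the lowest were Siah3 at -1.02, Shisal1 at -0.95, Nectin3 at -0.89, Flrt3 at -0.84 and Nuak1 at -0.83. Siah3 kept 50.4% ± 25 at E11.5, so its pools lie far apart. The highest were Rragb at 0.91, Camk2g at 0.91, Ehbp1 at 0.88, Rbfox2 at 0.88 and 2900097C17Rik at 0.86. Rbfox2, a splicing regulator, kept 72.4% ± 1.98 at E16.5 and 46.5% ± 3.81 at E11.5.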

How the results depend on the processing

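Counts of faster and slower genes at 2 and 4 h stayed within 1.5 times under most alternatives. Subtracting each gene's 12 h rate gave 1552 faster at 2 h, and centring on the summed rate gave 1352 slower at 2 h and 2622 at 4 h. Without any pool, faster genes ranged from 1866 to 1993 at 2 h and 3423 to 3558 at 4 h, and slower genes from 1813 to 1937 and 3971 to 4118. The fit without the replicate block moved no count at 2 or 4 h beyond that.

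Later against earlier loss was unstable. Genes losing more later numbered 183 without the block, 0 with covered Ts over 500, 183 over 5000, 190 with over 100 converted Ts, 347 by edgeR, 30 after subtracting the 12 h rate, 822 for labelled RNA over library covered Ts and 970 centred on the summed rate; those losing less later numbered 0 over 500, 2167 by edgeR, 580, 674 and 383. Unadjusted p under 0.05 with covered Ts over 500 gave 747 and 2439 by limma, where 0 passed the adjustment. Each pool left out gave 0 and 0.

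Against E14.5, faster genes numbered 0 with the replicate block, 225 over 5000, 2 with z-scores and 9 with background subtracted, and slower genes 2, 580, 4 and 12; without a pool they ranged from 0 to 51 and 0 to 151. Against E11.5, faster genes numbered 249, 148 and 263 with the block, z-scores and background, and slower genes 586 and 274 with the block and z-scores; without a pool they ranged from 138 to 373 and 352 to 895. Expression without the block gave 416 up and 519 down at 2 h, and 1071 and 1166 at 4 h; without a pool, 793 to 843 up and 844 to 1068 down at 2 h, and 1305 to 1554 up and 1315 to 1681 down at 4 h. On reads recovered from CPM, an alternative chosen after seeing the data, 1989 were up and 2141 down at 4 h.

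The difference from E14.5 in summed share was -10.1 points at 2 h and -8.16 at 4 h when taken as the median over genes. Named genes whose direction at 4 h turned were Tead2 (-0.057) and Arsa (-0.32) centred on the summed rate, Gm4750 (0.40) and Atg4c (0.28) as labelled RNA over library covered Ts, and Aurkb (-1.61) after subtracting its 12 h rate. The causes were not tested. Converted Ts at 4 h, a median of 154 per gene and pool, limit the precision of single genes.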
